A study of Mus musculus with 9 samples.

Results

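The genes described here are the 8 subunit genes of the cytoplasmic dynein motor and its partner dynactin that were selected for this description: *Dync1i1*, *Dync1i2*, *Dync1h1*, *Dync1li1*, *Dync1li2*, *Dctn1*, *Dynll1* and *Dynll2*. They were taken by symbol, and all 8 were listed in each of the 3 deposited tables, which together list 15096 genes. *Dync1i1* was chosen by its large increase with Nrf1 in these same data, so its values are a description and carry no test. The other 7 genes were chosen as parts of the same complex, and their fold changes were tested. The data are bulk mRNA sequencing of neonatal rat ventricular myocytes (NRVMs), which are primary cardiomyocytes cultured from the ventricles of Sprague Dawley pups of 1 to 2 days of age. The cultures were infected with an adenovirus 48 h after plating, at a multiplicity of infection of 50, and collected 48 h after infection. The virus carried LacZ (the control), mouse Nrf1 or mouse Nrf2, each driven by the CMV promoter in a vector that also encodes a red fluorescent protein, so the control cells were infected and carried the reporter as well. CMV drives expression in any infected cell type, and the cells had no other treatment in these libraries. Each group had 3 libraries. Whether the 3 came from separate preparations of cells is not given in the labels, so the p-values below measure only the spread between these libraries, which may be technical.

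Nrf1 and Nrf2 are stress-responsive transcription factors of the Cap'n'Collar family, and the study asked which genes each of them changes in cardiomyocytes. Cytoplasmic dynein is the motor that carries vesicles, organelles and protein aggregates along microtubules toward the cell centre. A heavy chain (*Dync1h1*) holds the motor domain, intermediate chains (*Dync1i1*, *Dync1i2*) hold the light chains and bind dynactin, light intermediate chains (*Dync1li1*, *Dync1li2*) bind cargo adaptors, and light chains of the LC8 type (*Dynll1*, *Dynll2*) bind the intermediate chains and many other proteins. *Dctn1* encodes the large dynactin subunit that the intermediate chains contact. The *Dync1i1* intermediate chain is known mainly from neurons, whereas *Dync1i2* is made in most cell types.

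The deposited tables give only the mean of a group. These means are sums of whole reads, each divided by the size factor of its library, and they were split back into the reads of the single libraries, as described under the processing of the data. Levels are given as normalised reads, the reads of a library divided by its size factor, and are not corrected for transcript length, so they are compared between groups and not between genes. The libraries held from 7873597 to 9347162 reads with LacZ, 8598155 to 10356087 with Nrf1 and 10197756 to 11960369 with Nrf2. The libraries carry no replicate number and are listed below from the deepest to the shallowest. *Nfe2l2*, which encodes Nrf2, stood at 67554 to 78772 normalised reads with Nrf2 against 3399 to 3493 with LacZ and 2815 to 2894 with Nrf1. *Nfe2l1*, which encodes Nrf1, was not analysed here, so the Nrf1 label was not checked against its own gene.

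*Dync1i1* was nearly silent in LacZ cells and clearly present in every Nrf1 library. The 3 LacZ libraries held 9, 6 and 2 reads of it, the 3 Nrf1 libraries 165, 159 and 127, and the 3 Nrf2 libraries 8, 4 and 4. In normalised reads these were 9.04, 6.73 and 2.37 with LacZ. With Nrf1 they were 156, 155 and 145. With Nrf2 they were 6.63, 3.50 and 3.90. The lowest Nrf1 library thus stood far above the highest library of the other groups, and the LacZ and Nrf2 libraries overlapped.

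In CPM (reads per 1000000 reads of a library), *Dync1i1* averaged 0.668 with LacZ (17 reads in all, exact 95% Poisson interval 0.389 to 1.07), 15.5 with Nrf1 (451 reads, 14.1 to 17.0) and 0.477 with Nrf2 (16 reads, 0.273 to 0.775). The level was 23.2 times higher with Nrf1 than with LacZ. It was 32.5 times higher with Nrf1 than with Nrf2. Both ratios rest on the Nrf1 level by which *Dync1i1* was chosen and are given without a test. The intervals here and those that follow for shares cover counting error only, not the spread between libraries. Against LacZ, the Nrf2 level had a ratio of 0.714 with an interval of 0.338 to 1.5, from 16 and 17 reads, and was not tested. The order of the levels was Nrf2, LacZ and Nrf1, and the values of the first pair overlapped between libraries. On the deposited means themselves the ratio of Nrf1 to LacZ was 25.1, from 5.70 to 143, in the authors' scaling for that pair. In the comparison of Nrf2 with LacZ, *Dync1i1* did not reach 1 CPM in any of the 6 libraries and was removed by the filter on low counts.

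**Figure D1:**
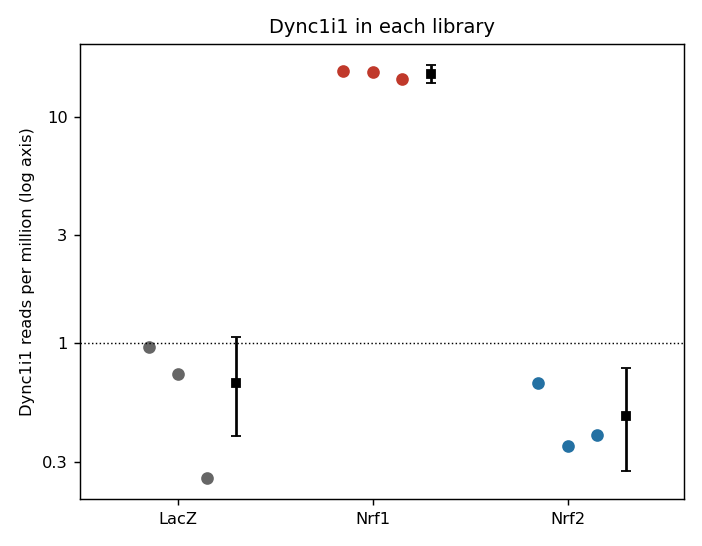
*Dync1i1* CPM, reads per 1000000 reads (log axis), in the 9 libraries (circles, 3 per group, deepest library at the left), with the pooled level of each group and its exact 95% Poisson interval (black square and bar); the dotted line marks 1 CPM. The 3 Nrf1 libraries sit together near the pooled level of 15.5, whereas every LacZ and Nrf2 library lies below the dotted line.

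The other intermediate chain gene, *Dync1i2*, supplied most intermediate chain reads in every group. It had 2010, 2008 and 2007 normalised reads in the LacZ libraries. With Nrf1 it had 2320, 2426 and 2475, and with Nrf2 it had 2192, 2207 and 2185. The 3 groups did not overlap, and they were ordered LacZ, Nrf2, Nrf1. *Dync1i2* was higher with Nrf1 than with LacZ by a log2 fold change of 0.26 ± 0.038 (SE, n = 3 libraries per group, limma with Benjamini-Hochberg adjustment, adjusted p = 1.83e-05). The increase with Nrf2 was 0.13 ± 0.035 (limma adjusted p = 0.00663), and the direct comparison gave a level lower with Nrf2 than with Nrf1 by -0.14 ± 0.031 (limma adjusted p = 8.56e-04). Scaled to the total reads of each library, the increase with Nrf2 was 0.04 and did not pass (limma adjusted p = 0.389).

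As a share of the reads of both intermediate chain genes, *Dync1i1* made up 0.309% with LacZ (exact 95% binomial interval 0.180 to 0.495), 5.97% with Nrf1 (5.45 to 6.53) and 0.215% with Nrf2 (0.123 to 0.350). In the single Nrf1 libraries the share was 6.31%, 6.01% and 5.54%, and in the LacZ and Nrf2 libraries it did not exceed 0.448%. These are shares of reads and not of molecules, since the transcripts may differ in length. They show that *Dync1i2* still gave the great majority of intermediate chain reads where *Dync1i1* was high.

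**Figure D2:**
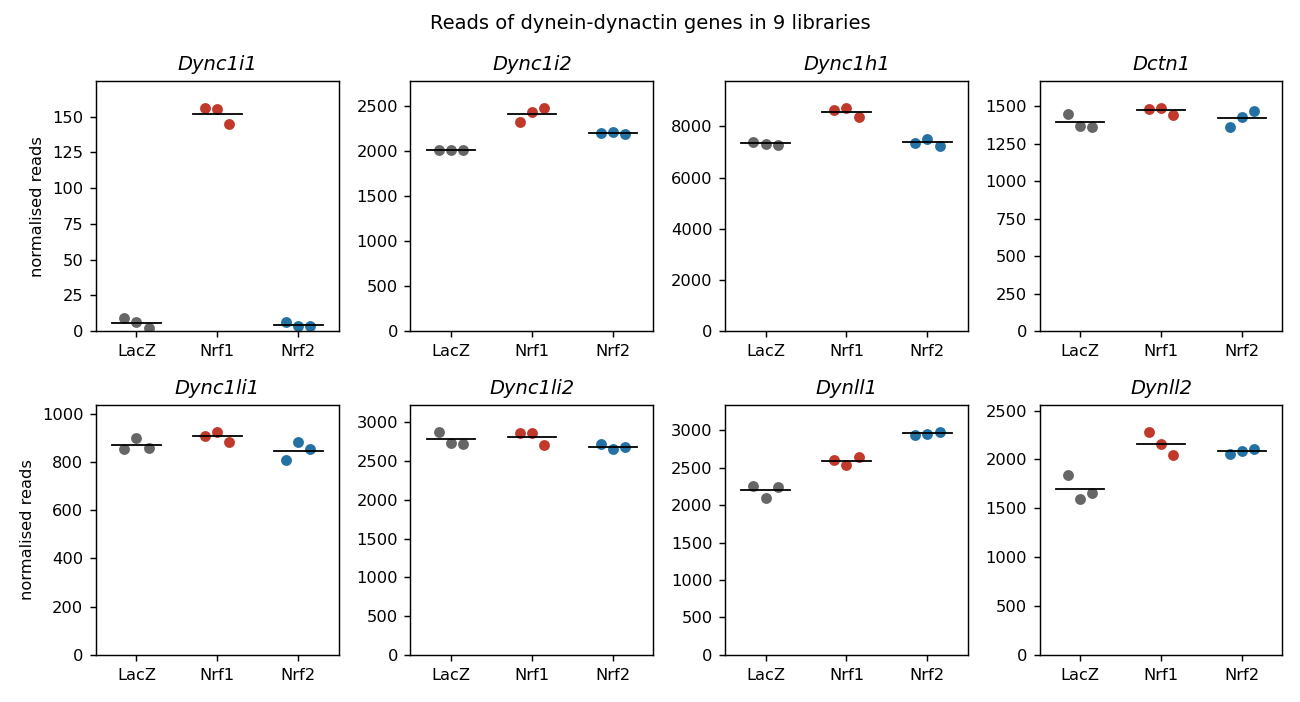
Normalised reads (vertical axis, from 0, a separate scale in each panel) of the 8 genes in the 9 libraries, 3 points per group with the group mean as a line. *Dync1i1* moves from single digits to about 152 with Nrf1, while the largest fitted change over LacZ among the other 7 genes is 34.7% (*Dynll1* with Nrf2).

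*Dync1h1*, the heavy chain, had 7412, 7326 and 7273 normalised reads with LacZ. It had 8646, 8727 and 8370 with Nrf1, and 7356, 7511 and 7256 with Nrf2. All Nrf1 libraries were above those of the other groups, and the LacZ and Nrf2 libraries overlapped. The log2 fold change of Nrf1 over LacZ was 0.22 ± 0.032 (SE, limma adjusted p = 1.34e-05), a level 16.7% higher. Nrf2 was lower than Nrf1 by -0.22 ± 0.023 (limma adjusted p = 1.20e-07). Nrf2 over LacZ gave 0.01, with a 95% interval of -0.06 to 0.08 (limma adjusted p = 0.847), and this small value turned its sign and passed when libraries were scaled to their total reads (-0.08, limma adjusted p = 0.0266).

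Of the 7 genes, the light intermediate chain genes had the smallest fold changes with Nrf1, and neither passed the test over LacZ. *Dync1li1* had 853, 900 and 856 normalised reads with LacZ, 906, 926 and 884 with Nrf1, and 806, 881 and 852 with Nrf2. Its LacZ libraries overlapped those of both other groups, and all 3 Nrf2 libraries lay below the lowest Nrf1 library. The log2 fold change was 0.06 with Nrf1 (95% interval -0.04 to 0.16, limma adjusted p = 0.315) and -0.04 with Nrf2 (-0.15 to 0.07, limma adjusted p = 0.532). *Dync1li2* had 2881, 2738 and 2723 normalised reads with LacZ, 2866, 2864 and 2705 with Nrf1, and 2716, 2650 and 2676 with Nrf2. Its log2 fold change was 0.01 with Nrf1 (-0.07 to 0.10, limma adjusted p = 0.774) and -0.05 with Nrf2 (-0.13 to 0.03, limma adjusted p = 0.251).

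Between Nrf2 and Nrf1, *Dync1li2* was lower with Nrf2 by -0.07 ± 0.030 (limma adjusted p = 0.0442). *Dync1li1* had -0.10 ± 0.044 and missed the threshold (limma adjusted p = 0.0536). Both calls sat close to the threshold, and that of *Dync1li2* was lost when the deepest or the middle Nrf1 library was left out (limma adjusted p = 0.156 and 0.152), and also when any 1 of the Nrf2 libraries was left out (limma adjusted p = 0.0573, 0.115 and 0.0771). *Dync1li1* passed without the shallowest Nrf1 library (limma adjusted p = 0.049) or without the middle Nrf2 library (limma adjusted p = 0.0263).

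The LC8 light chain genes were higher with both factors. *Dynll1* had 2250, 2098 and 2243 normalised reads with LacZ, 2604, 2538 and 2644 with Nrf1, and 2933, 2954 and 2983 with Nrf2. Its 3 groups did not overlap and were ordered LacZ, Nrf1, Nrf2, the reverse of the last pair in *Dync1i2*. The log2 fold change over LacZ was 0.24 ± 0.040 with Nrf1 (limma adjusted p = 6.40e-05) and 0.43 ± 0.038 with Nrf2 (limma adjusted p = 2.99e-07). In the direct comparison it was higher with Nrf2 than with Nrf1 by 0.18 ± 0.028 (limma adjusted p = 1.73e-05), the only gene of the 7 to pass as higher there.

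*Dynll2* had 1846, 1591 and 1662 normalised reads with LacZ. It had 2286, 2156 and 2041 with Nrf1, and 2055, 2089 and 2108 with Nrf2. The LacZ libraries were the lowest, and those of Nrf1 and Nrf2 overlapped. The increase over LacZ was 0.35 ± 0.054 with Nrf1 (limma adjusted p = 3.75e-05) and 0.30 ± 0.049 with Nrf2 (limma adjusted p = 1.34e-04), and Nrf2 against Nrf1 gave -0.06 with a 95% interval of -0.13 to 0.02 (limma adjusted p = 0.208). *Dynll1* and *Dynll2* encode nearly identical proteins, and how reads that match both were counted is not given in the sources used here, so the split between them is uncertain.

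*Dctn1*, the dynactin subunit that meets the intermediate chains, had 1451, 1368 and 1365 normalised reads with LacZ, 1484, 1490 and 1444 with Nrf1, and 1365, 1431 and 1471 with Nrf2. The groups overlapped in every comparison. The log2 fold change was 0.08 with Nrf1 (95% interval -0.01 to 0.17, limma adjusted p = 0.123), 0.03 with Nrf2 (-0.07 to 0.12, limma adjusted p = 0.602) and -0.05 for Nrf2 over Nrf1 (-0.13 to 0.02, limma adjusted p = 0.208). Without the deepest LacZ library, its increase with Nrf1 was 0.10 and passed (limma adjusted p = 0.0449).

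Counted together, 0 of the 7 tested genes passed the study's cutoffs, a fold change over 1.5 and an adjusted p under 0.05, in any of the 3 comparisons. For Nrf1 over LacZ, 11.2% of the 11357 genes tested passed these cutoffs as higher and 16.7% as lower. By adjusted p alone, 4 of the 7 were higher with Nrf1 and 0 were lower, where 34.4% of all genes tested were higher and 32.3% lower. Those 4 were *Dync1h1*, *Dync1i2*, *Dynll1* and *Dynll2*, and they were also the genes whose Nrf1 libraries all lay above the LacZ libraries, which held for 36.4% of all genes tested (34.1% had all Nrf1 libraries below). The median log2 fold change of the 7 was 0.22, against 0.00 over all genes tested.

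For Nrf2 over LacZ, 9.01% of the 11478 genes tested passed the cutoffs as higher and 9.37% as lower. By adjusted p alone, 3 of the 7 genes were higher (*Dync1i2*, *Dynll1*, *Dynll2*) and 0 lower, beside 28.6% and 26.0% of all genes tested. The groups did not overlap for the same 3 genes, and for *Dync1li2* all Nrf2 libraries lay below those of LacZ, without passing the test. Over all genes tested, 31.6% had all Nrf2 libraries above LacZ and 30.0% below. The median of the 7 was 0.03, and 0.00 over all genes. Scaled to total reads, 2 of the 7 were higher and 3 lower with Nrf2 by adjusted p, so the direction of the small values rests on the scaling. That scaling moved the median of all genes by -0.09 and the genes past the cutoffs from 1034 higher and 1075 lower to 823 higher and 1394 lower. For Nrf1 over LacZ the split moved less, from 1274 higher and 1896 lower to 1052 and 2153, and the 4 increases remained.

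For Nrf2 over Nrf1, 10.9% of the 11335 genes tested passed the cutoffs as higher and 4.6% as lower. By adjusted p alone, 28.8% were higher and 30.1% lower. Of the 7, *Dynll1* was higher with Nrf2, and *Dync1h1*, *Dync1i2* and *Dync1li2* were lower. All Nrf2 libraries lay above those of Nrf1 for *Dynll1* and below for *Dync1h1*, *Dync1i2* and *Dync1li1*, beside 31.6% and 32.1% of all genes tested. The comparisons share their libraries and are given side by side, not as separate evidence.

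**Figure D3:**
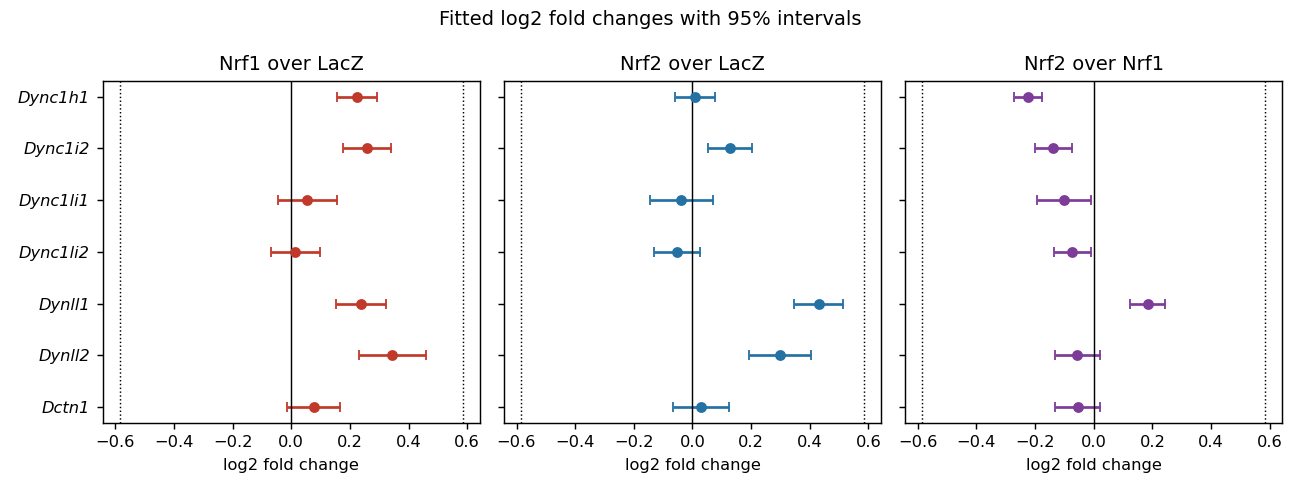
Log2 fold change (points) with its 95% interval from limma (bars) for the 7 tested genes in the 3 comparisons; dotted lines mark a fold of 1.5 in either direction. No point reaches a dotted line, the Nrf1 over LacZ values range from 0.01 to 0.35, and *Dynll1* is the gene to the right of 0 in the last panel.

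The spread between libraries of a group was small for the 7 genes, with a coefficient of variation from 0.0800% (*Dync1i2* with LacZ) to 7.76% (*Dynll2* with LacZ). The lowest value came from 2000, 1789 and 1693 reads and is smaller than counting error alone would give. It is thus no measure of reproducibility. For *Dync1i1* it was 3.98% with Nrf1 and 56.0% with LacZ, where the reads are few. For Nrf1 over LacZ, the fitted differences of the 7 genes lay between 0.953% and 27.0% of the LacZ level.

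Among the genes tested against LacZ with both factors, *Nell2* had the pattern most similar to that of *Dync1i1*. It encodes a secreted glycoprotein known from the nervous system. Likeness was the Euclidean distance in the log2 fold changes of Nrf1 and Nrf2 over LacZ, among 11268 genes tested against LacZ with both factors and with a mean of at least 10 in any group. *Nell2* lay at a distance of 1.07 and had 94.5, 89.8 and 84.2 normalised reads with LacZ, 999, 975 and 919 with Nrf1, and 96.1, 91.0 and 83.8 with Nrf2. Its Nrf1 libraries stood apart, and its LacZ and Nrf2 libraries overlapped, a pattern that the choice by likeness to *Dync1i1* selects for. The next genes among those tested were farther off: *Mat1a* (a methionine adenosyltransferase, distance 2.11), *Krt8* (a keratin of simple epithelia, 2.14), *Wfdc6a* (2.22) and *Tmem179* (2.24) had log2 fold changes of 2.58 to 3.50 with Nrf1 and 0.77 to 1.73 with Nrf2. *Dync1i1* itself was too low to be tested for Nrf2 over LacZ. With genes below the filter included, *Havcr1* (1.01) lay nearest, ahead of *Nell2*. *Alx4* (1.86) and *RGD1307443* (1.95) then also lay nearer than *Mat1a*. The log2 fold changes of *Havcr1*, *Alx4* and *RGD1307443* with Nrf2 were 0.39, -0.35 and 0.24. These 3 were named after their values were seen. The ranks describe 9 libraries and use the comparison by which *Dync1i1* was picked.

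Since *Dync1i1* is known from neurons, neuronal marker genes are given beside it. Of the 8 listed, 7 were tested with Nrf1, of which 2 passed the cutoffs as higher (*Uchl1*, *Nefl*) and 3 as lower (*Stmn2*, *Gap43*, *Syt1*). Their summed level was 615 to 684 normalised reads with LacZ, 6470 to 6677 with Nrf1 and 3889 to 4260 with Nrf2, most of it *Uchl1*, a deubiquitinase abundant in neurons. Without *Uchl1* the sums were 175 to 203, 197 to 243 and 751 to 850. The Nrf2 sums were mostly the neurofilament genes *Nefm* (mean 551) and *Nefl* (mean 148), and with Nrf2 4 of the 7 tested passed the cutoffs as higher (*Uchl1*, *Nefm*, *Nefl*, *Elavl4*) and 0 as lower. Over all genes tested, 11.2% passed as higher and 16.7% as lower with Nrf1, and 9.01% and 9.37% with Nrf2. The means of *Stmn2*, *Syt1* and *Gap43* were 37.7, 16.8 and 14.3 with LacZ and 26.9, 9.07 and 13.6 with Nrf2. *Snap25*, a synaptic gene, had 0 reads in every LacZ library and at most 0.947 normalised reads with Nrf1. With Nrf2 it had 3.31, 2.62 and 0.974, also near the floor. *Rbfox3* was not analysed here.

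Markers of cardiomyocytes and of other cell types were checked in the same libraries. Their counts past the cutoffs stand beside 11.2% of all genes tested higher and 16.7% lower with Nrf1, and 9.01% and 9.37% with Nrf2. By adjusted p alone, the shares of all genes were 34.4% and 32.3% with Nrf1, and 28.6% and 26.0% with Nrf2. Cardiomyocyte markers summed to 158749 to 184790 normalised reads with LacZ, 162956 to 164777 with Nrf1 and 182788 to 186096 with Nrf2, with none of the 11 at 0. Past the cutoffs, 2 of the 11 were higher with Nrf1 (*Ryr2* 0.83, *Actc1* 0.64) and 4 lower (*Mb* -1.83, *Myh7* -1.07, *Tnni3* -0.96, *Nppa* -0.62), and 3 were higher and 6 lower by adjusted p, with a median of -0.21. With Nrf2, 0 passed the cutoffs, and 6 were higher and 2 lower by adjusted p. The 9 fibroblast markers summed to 122634 to 128568, 31242 to 33649 and 63905 to 69056 in the same order, and 9 of 9 were lower with Nrf1 past the cutoffs and 7 of 9 with Nrf2. The 6 endothelial markers summed to 1112 to 1164, 817 to 896 and 791 to 942, and 4 and 3 of them were lower. The 6 leukocyte markers summed to 1564 to 2295, 942 to 967 and 867 to 967, and 5 were lower with each factor. The remaining leukocyte marker, *Csf1r*, was higher with Nrf1 by adjusted p (0.45, limma adjusted p = 0.00366). With Nrf2 it had 0.10 (limma adjusted p = 0.542). The 4 smooth muscle markers summed to 31897 to 38564, 58739 to 59556 and 46517 to 49770, with 2 higher and 1 lower with Nrf1 and 1 higher with Nrf2. Schwann cell markers summed to 81.4 to 116, 81.4 to 86.9 and 205 to 276, and of the 2 tested 1 was higher with Nrf1 and 2 with Nrf2. The part of these shifts in the changes of the dynein genes was not tested, and in bulk RNA fewer cells of a type and less RNA per cell cannot be told apart.

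Of the 11 other dynactin genes, 2 passed the cutoffs as higher with Nrf1, *Dctn5* of the pointed end complex (0.84 ± 0.054, limma adjusted p = 1.13e-09) and *Actr1a*, which encodes the Arp1 filament subunit (0.61 ± 0.034, limma adjusted p = 2.14e-10). *Actr1a* had 3134, 3126 and 3172 normalised reads with LacZ, 4674, 4899 and 4880 with Nrf1, and 3624, 3758 and 3952 with Nrf2, and the groups did not overlap. By adjusted p alone 9 of the 11 were higher with Nrf1 and 1, the paralog *Actr1b*, was lower (-0.37), with a median of 0.49. Of all genes tested with Nrf1, 11.2% passed the cutoffs as higher and 16.7% as lower. By adjusted p, 34.4% were higher and 32.3% lower. All Nrf1 libraries lay above LacZ for 36.4% of genes tested, and all Nrf2 libraries for 31.6%. Between the factors, all Nrf2 libraries lay below Nrf1 for 32.1%. No difference of the dynactin genes from all genes was tested. With Nrf2, 0 passed the cutoffs, 6 were higher and 1 lower by adjusted p, with a median of 0.11. Of all genes tested with Nrf2, 9.01% passed the cutoffs as higher and 9.37% as lower. By adjusted p, 28.6% were higher and 26.0% lower. In the direct comparison 8 of 11 were lower with Nrf2 than with Nrf1 and 3 higher by adjusted p, beside 30.1% and 28.8% of all genes tested. Scaled to total reads, 1 gene passed the cutoffs and 7 were higher with Nrf1, and the medians were 0.42 with Nrf1 and 0.02 with Nrf2.

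Of the other light chains of the motor, none passed the cutoffs. Of 4 listed genes, 3 were tested, and *Dynlt1* (0.19) and *Dynlt3* (0.32) were higher with Nrf1 by adjusted p. All 3, with *Dynlrb1*, were higher with Nrf2 (0.16 to 0.30), of which 1 remained when scaled to total reads. Of all genes tested, 34.4% were higher by adjusted p with Nrf1 and 28.6% with Nrf2. Past the cutoffs, 11.2% were higher and 16.7% lower with Nrf1, and 9.01% and 9.37% with Nrf2. *Dynlrb2* had at most 1 read in a library.

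Among 20 dynein regulators and adaptors listed of 25, 2 passed the cutoffs as higher with Nrf1, the Golgi GTPase *Rab6a* (0.66 ± 0.036, limma adjusted p = 2.03e-10) and the adaptor *Hook1* (0.60), and 1 as lower, *Hook2* (-0.59), where 11.2% and 16.7% of all genes tested passed as higher and lower. With Nrf2, *Hap1* was higher (0.63) and *Hook2* lower (-0.62), where 9.01% and 9.37% of all genes tested passed. The medians were 0.10 and -0.02. Scaled to total reads, *Rab6a* and *Hook1* no longer passed the fold cutoff with Nrf1, nor *Hap1* with Nrf2, and *Hook2* still did with both.

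Kinesins are the motors that mostly move the other way along microtubules. Of 15 tested, 5 passed the cutoffs as higher with Nrf1 (*Klc1* 0.96, *Kif5b* 0.95, *Kif1b* 0.81, *Kif16b* 0.61 and *Kif3a* 0.61) and 1 as lower (*Kif26b*, -0.64), with a median of 0.31. *Kif5b*, the widespread kinesin-1 heavy chain, had 8358, 7486 and 8030 normalised reads with LacZ, 15398, 15423 and 15380 with Nrf1, and 11522, 11597 and 11593 with Nrf2, and the groups did not overlap. Its increase with Nrf2 was 0.54 (limma adjusted p = 2.65e-08), under the fold cutoff. All Nrf1 libraries lay above LacZ for 36.4% of genes tested, and all Nrf2 libraries for 31.6%. Between the factors, all Nrf2 libraries lay below Nrf1 for 32.1%. With Nrf2, *Kif3a* (1.06) and *Klc1* (0.85) passed as higher and 0 as lower, with a median of 0.06, which turned to -0.03 when scaled to total reads. Among all genes tested, 11.2% passed as higher and 16.7% as lower with Nrf1, and 9.01% and 9.37% with Nrf2. No difference of the kinesins from all genes was tested.

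Of the 13 tubulin genes, most of whose products form the track, 5 passed as higher with Nrf1 and 1 as lower (*Tubb2b*, -0.65). The 5 were *Tubb4a* (1.38), *Tuba4a* (1.36), *Tuba1c* (1.18), *Tubb4b* (0.76) and *Tuba1b* (0.60). With Nrf2, 7 were higher, led by *Tubb4a* (2.80), *Tuba4a* (1.23) and *Tubb3* (1.01), and *Tubb2b* was lower (-0.70). The medians were 0.45 and 0.66. The shares of all genes tested that passed as higher and lower were 11.2% and 16.7% with Nrf1, and 9.01% and 9.37% with Nrf2. No difference of the tubulins from all genes was tested. Tubulin genes are close copies of each other, and the split of reads between them is uncertain.

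Of 5 genes for handling dynein's aggregate cargo, 3 passed as higher with each factor: *Sqstm1*, the p62 receptor of ubiquitylated cargo (0.99 with Nrf1, 1.26 with Nrf2), the segregase *Vcp* (0.97, 0.61) and the chaperone partner *Bag3* (0.69, 0.71). *Hdac6* was not analysed here. Scaled to total reads, 3 of the 5 kinesins, 4 of the 5 tubulins and 3 of the 3 cargo genes still passed as higher with Nrf1, and 6 of the 7 tubulins and 2 of the 3 cargo genes with Nrf2. Of 5 genes of dynein 2, the motor of cilia, *Dync2li1* was higher with Nrf1 (0.85) and 0 passed the cutoffs with Nrf2. Of 3 axonemal dynein genes tested, *Dnah1* was higher with Nrf1 (0.98). Of 5 genes that bring dynein to the kinetochore or spindle, *Cenpf* was lower with Nrf1 (-0.64) and 0 passed the cutoffs with Nrf2. Beside the counts of these lists, 11.2% of all genes tested passed as higher and 16.7% as lower with Nrf1, and 9.01% and 9.37% with Nrf2. No difference of these lists from all genes was tested.

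**Figure D4:**
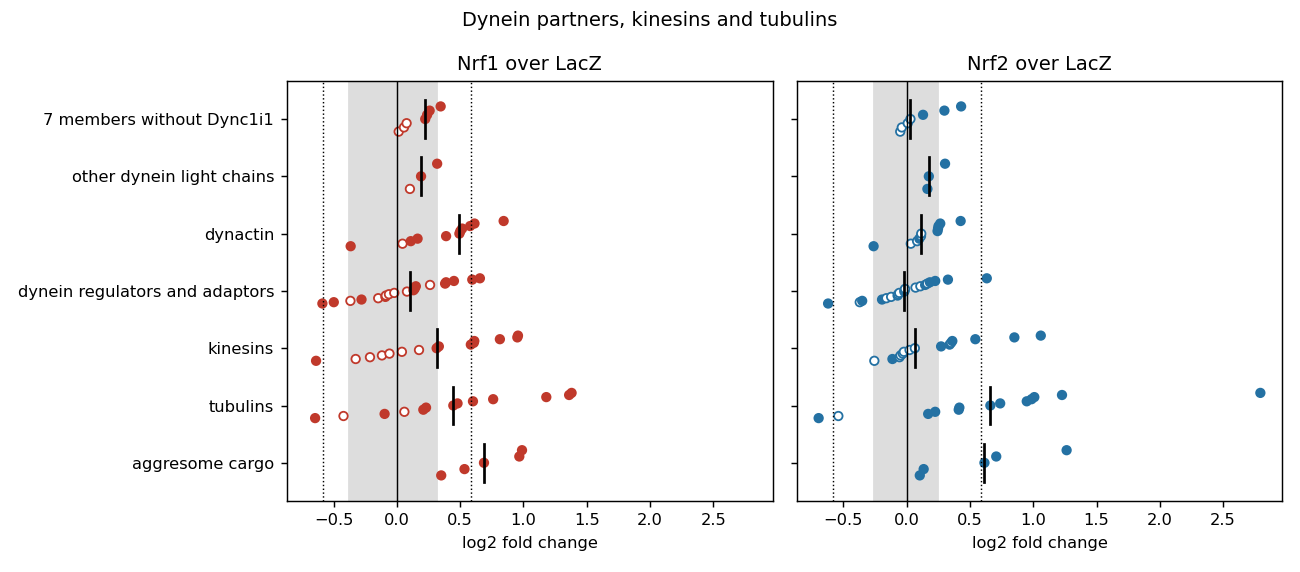
Log2 fold changes over LacZ for the 7 tested genes and for related gene lists, 1 point per gene (filled where the limma adjusted p is under 0.05), with each list's median as a bar; the grey band spans the middle of all genes tested (first to last quartile) and dotted lines mark a fold of 1.5. The 7 genes lie inside the grey band except *Dynll2* in both panels and *Dynll1* with Nrf2, which lie to its right. With Nrf1 the dynactin, regulator, kinesin, tubulin and aggregate cargo lists each hold genes past the dotted line at the right.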

How the data were processed

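The mRNA of 9 NRVM cultures (3 each with LacZ, Nrf1 or Nrf2) was sequenced as 75-bp single-end stranded reads. After a quality check in FastQC 0.11.4, the authors ran HISAT2 2.0.4 against the rat genome Rnor_6.0. They then removed duplicates with SAMtools 0.1.18 and counted genes with featureCounts 1.6.0. How the removal of duplicates affected the reads of abundant transcripts was not tested. GEO's labels name mouse as the organism, although the cells are rat. The deposited signal of a gene, given in 1 table per pair of groups, is the mean over 3 libraries of reads divided by size factors. Columns with the authors' fold changes and p-values for the same pairs were not used.

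A group mean is a sum of whole reads times 3 fixed steps, and the steps were read from the lowest means. Solving both tables that hold a group gave 1 set of whole reads for 14654 of 14657 genes with LacZ, 14578 of 14579 with Nrf1 and 14745 of 14746 with Nrf2. For low genes (mean under 20), each table alone gave the same set for 3902 of 3902, 3982 of 3982 and 4020 of 4020. Size factors recomputed from these reads differed from the steps by at most 0.0114%. Recovered libraries have a group but no replicate number. The libraries of a group differed by more than sampling noise, with a chi-square per gene of 1.48 to 5.32.

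For each pair, genes with over 1 CPM in at least 3 of the 6 libraries were tested with limma 3.58.1 (trend, two-sided, R 4.3.3) on log2(reads divided by the authors' size factors + 1), with Benjamini-Hochberg adjustment over all genes tested. Fold changes are on that scale and understate those of low genes. Printed levels use size factors over all 9 libraries. Scripts were tested on simulated data. All 8 genes, and from each list up to 3 genes past the cutoffs per comparison with LacZ plus those behind a count of 5 or fewer, were named, and the 5 nearest genes to *Dync1i1*. The genes, lists and tests were chosen with earlier results of these data known. Alternatives were other cutoffs, filters, pseudocounts and scalings, 1 fit over 9 libraries, limma without trend or, added after seeing the data, with voom weights, and leaving out each library. Sequences and coordinates of the rat genes were not used here.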

Additional observations from a re-analysis of the deposited data

How the results depend on the processing

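With no fold cutoff, 4, 3 and 4 of the 7 genes passed for Nrf1 over LacZ, Nrf2 over LacZ and Nrf2 over Nrf1, against 0 with it, and the genes past the cutoffs rose to 3911 higher and 3669 lower, 3288 and 2984, and 3267 and 3416. With a cutoff of 2 they were 451 and 1026, 491 and 422, and 601 and 125. Scaled to total reads, 3 of the 7 were lower with Nrf2 than with LacZ by adjusted p, *Dync1h1* turned to -0.0845 (limma adjusted p = 0.0266), and *Dync1li1* (-0.13) and *Dync1li2* (-0.14) passed as lower. The fold change of *Dync1i1* for Nrf2 over Nrf1 was -4.81, and -4.07 with a pseudocount of 5. Leaving out 1 library at a time, 2 to 5 of the 7 were lower with Nrf2 than with Nrf1, 5 without the shallowest Nrf1 library, when *Dync1li1* and *Dynll2* passed as well. The call of *Dync1li2* in that comparison was also lost without a filter, without trend, re-centred on the median gene and in 1 fit over 9 libraries (limma adjusted p = 0.0567 to 0.172). The cause of these changes was not tested. The increases of *Dync1h1*, *Dync1i2*, *Dynll1* and *Dynll2* with Nrf1 kept their direction and an adjusted p under 0.05 in all other scalings, filters, fits and left-out libraries run, and none of them passed a fold cutoff of 1.5. No paired analysis was possible because the recovered libraries carry no replicate numbers. Depth limits *Dync1i1* in LacZ and Nrf2 cells, where a library held 2 to 9 reads.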

Other observations

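*Havcr1*, which encodes the kidney injury molecule KIM-1, had the pattern nearest to that of *Dync1i1* when the filter on low counts was dropped. It lay at a distance of 1.01 among 11664 genes, beside 1.07 for *Nell2*, and was singled out after its values were seen. It had 3, 2 and 2 reads in the LacZ libraries, 60, 45 and 32 in the Nrf1 libraries, and 2, 5 and 5 in the Nrf2 libraries. All Nrf1 libraries stood above the others, and LacZ and Nrf2 overlapped, a pattern that the choice by likeness to *Dync1i1* selects for. Its mean reached the minimum of 10 with Nrf1 only (45.8, against 2.54 with LacZ and 3.63 with Nrf2).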
